A study of Mus musculus with 18 samples.

Results

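Troponin is the calcium switch of the striated muscle thin filament, and its 8 genes Tnni1, Tnni2, Tnni3, Tnnt1, Tnnt2, Tnnt3, Tnnc1 and Tnnc2 were followed here in RNA from the nuclei and from the cytoplasm of mouse myofibers. Members were all non-control probes of the array that carried one of these gene names. All 8 genes, of 35527 gene names on the array, had a probe. There were 9 such probes among 55681 probe names, 2 of them for Tnnt3 and 1 for each of the other genes. All 9 probes passed the filter on low values in every comparison.

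The 18 samples were female CD1 mice's myofibers, taken at 3 months of age. The muscles were the soleus and 2 fast ones of the lower leg, the extensor digitorum longus (EDL) and the tibialis anterior (TA). Each muscle gave 3 cytoplasm and 3 nuclei samples. Each sample was a pool of 5 to 10 intact fibers freed by type I collagenase and picked by hand, so cells attached to the fibers could be carried along, and 9 mice supplied all pools. EDL and soleus pools of the same number came from the same mice, in both fractions. TA cytoplasm 1 and 2 shared mouse 5, which also gave EDL and soleus pools 2. The mice of TA nuclei 1 and 2 were also those of TA cytoplasm 1 and 2, and that of TA nuclei 3 was in EDL and soleus pools 1. None of the main fits, those of EDL and soleus included, takes account of shared mice. A p-value thus measures the spread between pools rather than between unrelated animals. Fits over both fractions count nuclei and cytoplasm samples of the same mice as separate. A block for replicate number in EDL and soleus was run as an alternative. No group carried a mutation or a treatment.

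A troponin complex holds 3 subunits. Troponin C binds calcium, troponin I inhibits the interaction of actin with myosin at rest, and troponin T anchors the complex on tropomyosin. Slow fibers use Tnni1 with Tnnt1, fast fibers use Tnni2 with Tnnt3, and heart muscle uses Tnni3 with Tnnt2. Tnnc1 is shared by slow fibers and heart, whereas Tnnc2 belongs to fast fibers. Tnni1 and Tnnt2 are also known from developing muscle. The soleus of the mouse is rich in slow fibers, and EDL and TA are fast muscles.

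The probes were 60 bases long, and the sequences below are those whose reach over the transcript matters for reading the values. The positions are on mm9. Probes for Tnni1, Tnnc1, Tnnt2 and the first Tnnt3 probe covered a genomic span longer than the probe, so they crossed an exon junction and matched spliced RNA. Their spans skipped 816, 357, 253 and 1703 bases. The other 5 probes lay in a single block, and 3 of these (Tnni2, Tnnt1 and Tnnc2) held the polyadenylation signal AATAAA and are not printed. The capitals mark the 27 bases that the Tnnt3 probes had in common.
Tnni1, chr1:137705328-137706203, plus strand: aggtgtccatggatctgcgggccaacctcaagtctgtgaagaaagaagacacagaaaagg
Tnnc1, chr14:32023360-32023776, plus strand: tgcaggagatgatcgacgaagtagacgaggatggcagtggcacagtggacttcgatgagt
Tnnt2, chr1:137747976-137748288, plus strand: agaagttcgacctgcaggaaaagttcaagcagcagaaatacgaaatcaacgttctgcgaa
Tnni3, chr7:4472043-4472102, minus strand: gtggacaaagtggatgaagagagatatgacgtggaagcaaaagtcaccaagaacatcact
Tnnt3 first probe, chr7:149698500-149700262, plus strand: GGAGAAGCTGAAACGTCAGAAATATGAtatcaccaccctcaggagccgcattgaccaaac
Tnnt3 second probe, chr7:149698467-149698526, plus strand: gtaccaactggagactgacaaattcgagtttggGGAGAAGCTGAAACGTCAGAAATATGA
The remaining probes lay at chr7:149630251-149630310 on the plus strand (Tnni2), chr7:4456265-4456324 on the minus strand (Tnnt1) and chr2:164602661-164602720 on the minus strand (Tnnc2). Between probes of different troponin genes the longest identical run was 8 bases, and no other probe on the array had 30 bases in common with any of the 9. Troponin I and T genes sit side by side in the genome. The probes of Tnni1 and Tnnt2 lay 42.4 kb apart, those of Tnni2 and Tnnt3 69.1 kb and those of Tnnt1 and Tnni3 15.8 kb.

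Levels are given as log2 intensity after quantile normalization, and levels of different probes are not compared, apart from the gap between the overlapping Tnnt3 probes. Between 78.9% and 89.3% of spots per array had a positive and significant signal, and the precision was limited by the 3 arrays per group. The arrays lay on 4 slides, numbered here by scan time. Slide 1 held all EDL and soleus cytoplasm and TA cytoplasm 1, slide 2 all EDL and soleus nuclei, slide 3 TA cytoplasm 3, and slide 4 TA cytoplasm 2 with the 3 TA nuclei samples. Soleus and EDL were therefore compared within slides, but slide and fraction cannot be told apart in these muscles. The muscle labels were checked with marker genes. The 5 slow fiber markers were all higher in soleus than in EDL (median difference 4.13), and of the 9 fast fiber markers 7 were lower and Myh2 was higher (median −1.14). TA cytoplasm 1 stood apart from the other 5 TA arrays. The satellite cell gene Cdh15, singled out after its values were seen, had a level of 6.60 in TA cytoplasm 1 and of 11.55 to 12.53 in the other TA arrays, against 6.26 to 7.00 in EDL and soleus. The smooth muscle actin Acta2, singled out in the same way, was 8.80 in TA cytoplasm 1, 13.12 to 14.21 in the other TA arrays and 9.58 to 10.61 in EDL and soleus.

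**Figure D1:**
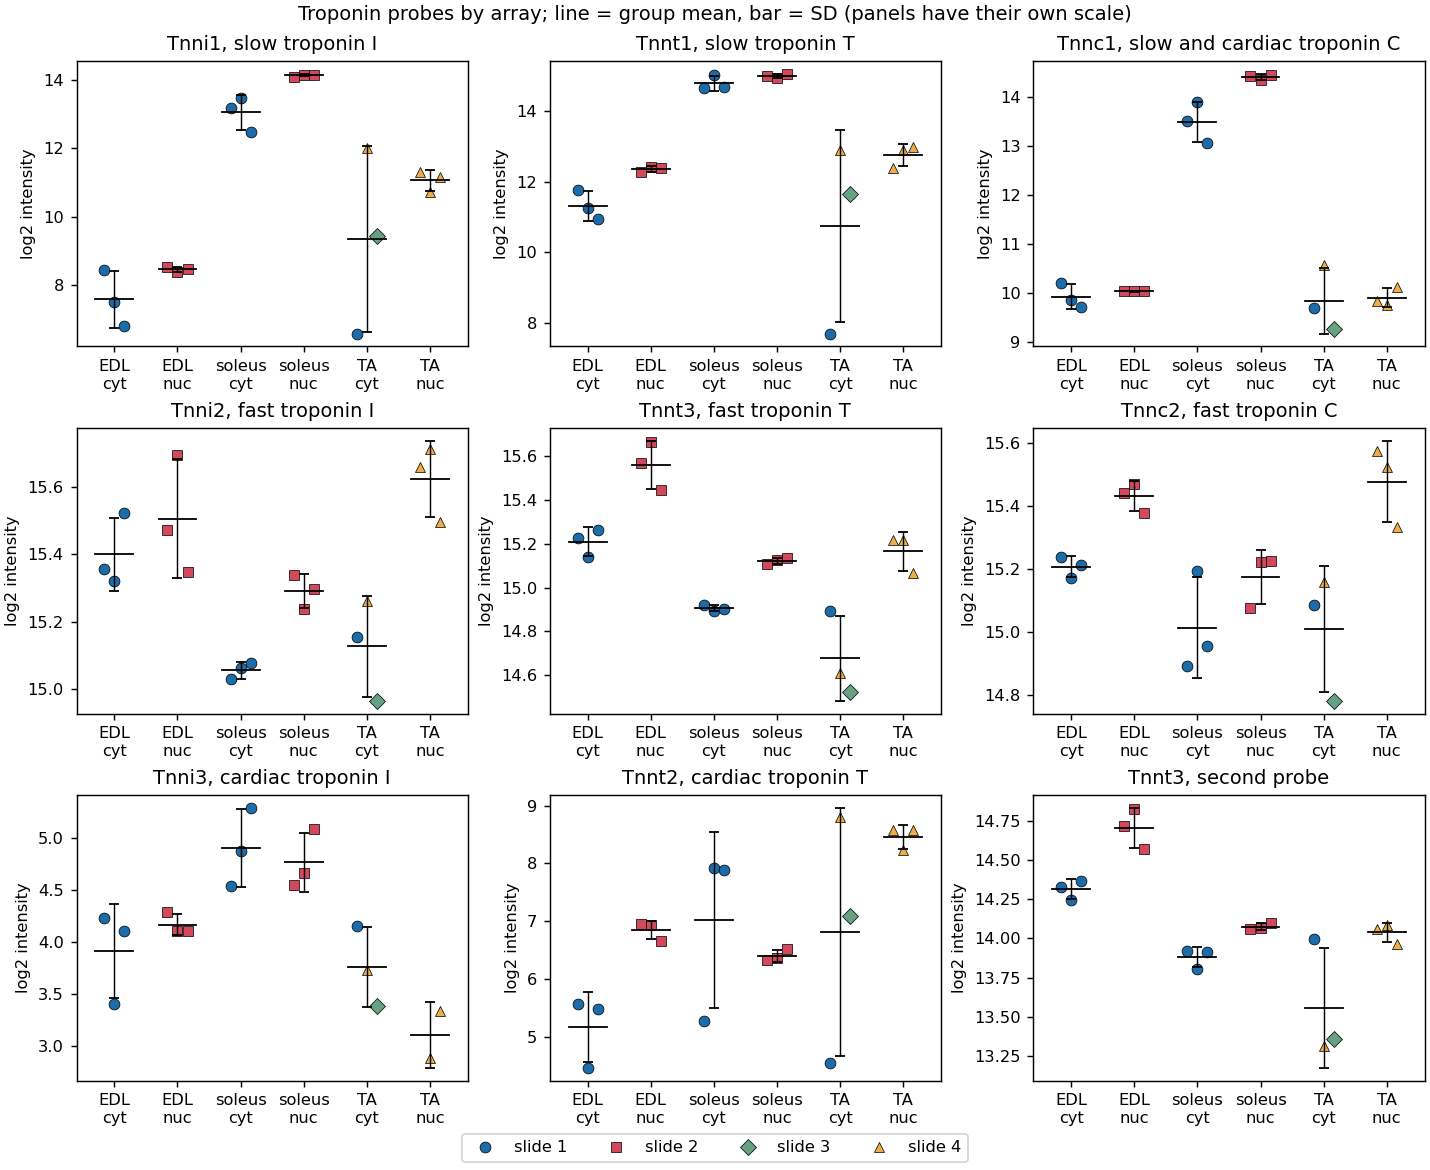
Log2 intensity after quantile normalization (vertical axes) of the 9 troponin probes in each of the 18 arrays, grouped by muscle and fraction on the horizontal axes. Points are arrays coloured by slide, lines are group means and bars the SD of 3 arrays (2 for Tnni3 in TA nuclei). All 6 soleus arrays lie above all 6 EDL arrays for Tnni1, Tnnt1 and Tnnc1, and TA cytoplasm 1 lies below the other TA arrays for Tnni1, Tnnt1 and Tnnt2.

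The first question was how the troponin subunits differ between a slow and a fast muscle. The 3 slow subunits were all higher in soleus than in EDL, by 47.5-fold for Tnni1, 15.6-fold for Tnnc1 and 8.28-fold for Tnnt1. The fast subunits differed by much less, from 1.17-fold for Tnnc2 to 1.45-fold for the second Tnnt3 probe, each lower in soleus. Of the 9 probes 5 passed the test at an adjusted p of 0.05, with 4 higher and 1 lower in soleus. One of the 4 was Tnni3, which was near background in EDL. It was dim in soleus too, where 64.1% to 75.6% of probes on an array were brighter. Of all 41888 probes tested 3.88% passed, 2.31% higher and 1.57% lower. The median difference was 0.71 over the 9 probes and −0.04 over all probes. These are pooled fibers, so a lower share of slow fibers and less of the RNA per fiber cannot be told apart.

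Tnni1, the slow inhibitory subunit, had levels of 8.45, 7.49 and 6.80 in EDL cytoplasm and of 13.18, 13.47 and 12.49 in soleus cytoplasm. In nuclei the levels were 8.54, 8.38 and 8.46 in EDL and 14.10, 14.16 and 14.15 in soleus. The lowest soleus array was thus far above the highest EDL array in each fraction. Soleus exceeded EDL by 5.57 ± 0.61 (log2, SE, adjusted p = 4.67e-05). The difference was 5.47 in cytoplasm, on slide 1 (adjusted p = 0.00393), and 5.68 in nuclei, on slide 2 (adjusted p = 0.00208). Within the fractions, 1.48% of all probes passed in cytoplasm and 1.59% in nuclei.

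Tnnc1, the calcium-binding subunit of slow fibers and heart, had levels of 10.20, 9.87 and 9.71 in EDL cytoplasm and of 13.51, 13.88 and 13.06 in soleus cytoplasm. Nuclei had levels of 10.04, 10.04 and 10.03 in EDL and of 14.42, 14.33 and 14.45 in soleus. Every soleus array stood above every EDL array, and the EDL nuclei were nearly alike. The difference was 3.96 ± 0.20 (SE, adjusted p = 1.36e-08), with 3.56 in cytoplasm (adjusted p = 7.28e-06) and 4.36 in nuclei (adjusted p = 8.18e-07).

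Tnnt1, the tropomyosin-binding subunit of slow fibers, had levels of 11.77, 11.25 and 10.94 in EDL cytoplasm, and of 14.64, 15.02 and 14.69 in soleus cytoplasm. Nuclei had 12.27, 12.42 and 12.38 in EDL, and 15.00, 14.93 and 15.04 in soleus. Again no EDL array reached a soleus array. The difference over both fractions was 3.05 ± 0.59 (SE, adjusted p = 0.00671), but within cytoplasm (3.47, adjusted p = 0.0511) and within nuclei (2.63, adjusted p = 0.177) it missed the threshold. The SD of this probe was widest in TA cytoplasm (2.72), which entered the fit. With EDL and soleus arrays alone, an alternative added after the data were seen, the adjusted p was 1.18e-06 over both fractions, 2.24e-05 in cytoplasm and 9.72e-05 in nuclei. The calls of Tnni1, Tnnc1 and Tnnt1 over both fractions held without any single array. When the nuclei arrays were reduced to their mean in each muscle, only Tnnc1 passed (adjusted p = 0.0037), against an adjusted p of 0.141 for Tnni1 and 0.978 for Tnnt1.

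A further probe, which the rule did not take because its gene name is a transcript identifier, is described by the array as a troponin T1 transcript. It lies at chr7:4456172-4456231 of mm9, beside the Tnnt1 probe. Its levels were 8.16, 7.77 and 7.68 in EDL cytoplasm, 12.30, 12.87 and 11.94 in soleus cytoplasm, 8.52, 8.58 and 8.61 in EDL nuclei, and 13.61, 13.51 and 13.65 in soleus nuclei. Soleus was higher by 4.76 ± 0.34 (SE, adjusted p = 5.68e-07). The size of the difference between soleus and EDL thus was not the same at the 2 Tnnt1 probes, and the difference between them was not tested.

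**Figure D2:**
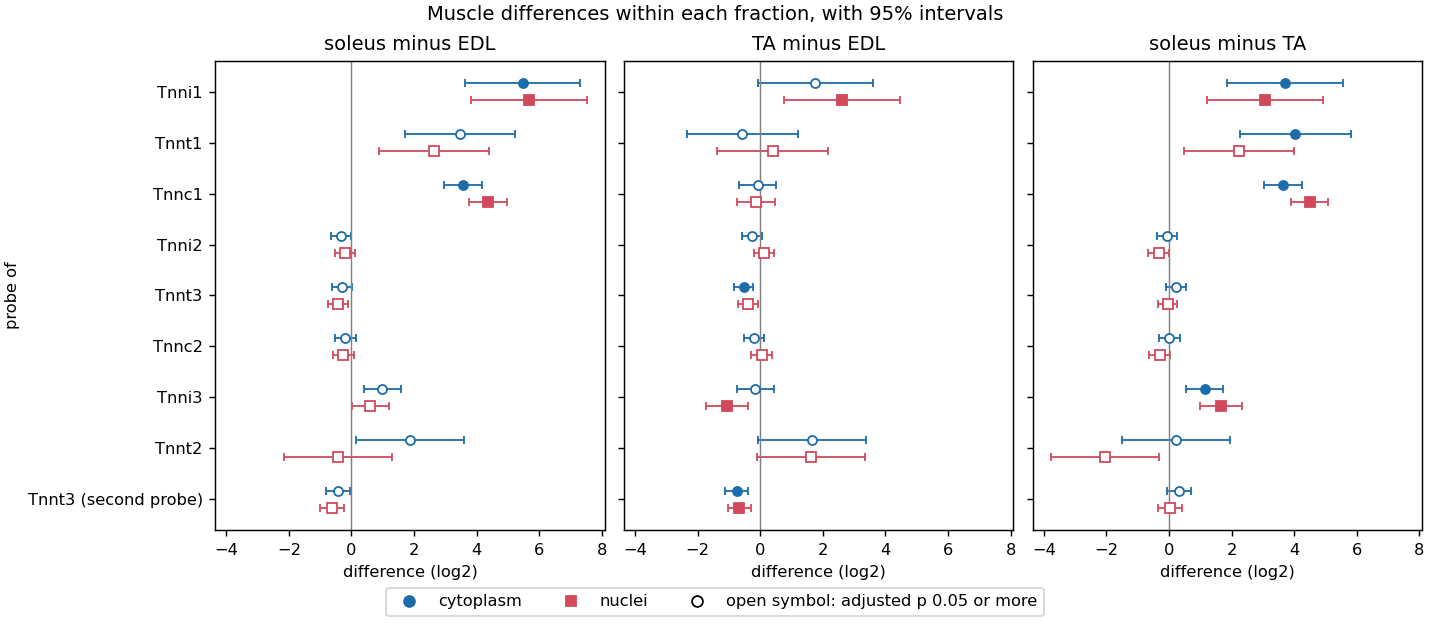
Differences between muscles in log2 intensity (horizontal axis) for the 9 troponin probes, as soleus minus EDL, TA minus EDL and soleus minus TA, with 95% intervals. Colours give the fraction, and open symbols have an adjusted p of 0.05 or more. Tnni1, Tnnc1 and Tnnt1 lie far to the right in soleus minus EDL, and the fast subunits lie close to 0.

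The fast subunits stayed among the brightest probes of the array in soleus too. Tnni2, the fast inhibitory subunit, had levels of 15.36, 15.32 and 15.52 in EDL cytoplasm, 15.03, 15.06 and 15.08 in soleus cytoplasm, 15.47, 15.70 and 15.35 in EDL nuclei, and 15.34, 15.24 and 15.30 in soleus nuclei. Soleus was below EDL without overlap in each fraction, but by −0.28 ± 0.11 only (SE, 95% interval −0.51 to −0.05, adjusted p = 0.21). Tnnc2, the fast calcium-binding subunit, had 15.24, 15.17 and 15.21 in EDL cytoplasm, 14.89, 15.19 and 14.95 in soleus cytoplasm, 15.44, 15.47 and 15.38 in EDL nuclei, and 15.08, 15.22 and 15.22 in soleus nuclei. The groups overlapped in cytoplasm, and the difference was −0.23 ± 0.11 (SE, 95% interval −0.46 to 0.01, adjusted p = 0.355). These misses do not show equal levels. In unscaled signals Tnni2 ranked 41 to 157 from the brightest probe of an array and Tnnc2 53 to 199. No troponin spot was marked as saturated. Outside the complex the 9 fast fiber markers ran from −4.48 ± 0.53 for Myh4, the fastest myosin heavy chain (SE, adjusted p = 8.56e-05), to 1.13 for Myh2 (adjusted p = 0.00214). Between them lay Atp2a1, the fast calcium pump, with −0.42 (adjusted p = 0.248) and the light chain Myl1 with −0.51 (adjusted p = 0.044). These 4 were picked with their values in view.

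Tnnt3, the fast tropomyosin-binding subunit, was read by 2 overlapping probes. At the first, which crosses a junction, levels were 15.23, 15.14 and 15.26 in EDL cytoplasm, 14.92, 14.89 and 14.90 in soleus cytoplasm, 15.57, 15.66 and 15.44 in EDL nuclei, and 15.11, 15.12 and 15.13 in soleus nuclei. The second probe, whose shared 27 bases sit at its 3′ end, had 14.33, 14.24 and 14.37 in EDL cytoplasm, 13.92, 13.81 and 13.91 in soleus cytoplasm, 14.72, 14.82 and 14.57 in EDL nuclei, and 14.06, 14.06 and 14.10 in soleus nuclei. All soleus arrays were below all EDL arrays of the same fraction at either probe. The first probe was lower in soleus by −0.37 ± 0.10 (SE, adjusted p = 0.0639), which passed with EDL and soleus arrays alone (adjusted p = 0.0421), without TA cytoplasm 1 (0.0175) and without TA cytoplasm 3 (0.0411). The second was lower by −0.53 ± 0.13 (SE, adjusted p = 0.0254), which missed the threshold with replicate number as a block (adjusted p = 0.0524). It also missed it, at an adjusted p of up to 0.079, without EDL cytoplasm 3, EDL nuclei 1 or 2, or any soleus nuclei array. Within cytoplasm the second probe had −0.44 (adjusted p = 0.272) and within nuclei −0.63 (adjusted p = 0.114).

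The gap between the signals of the Tnnt3 probes is given as a description, since the design could not reach the threshold. The first probe exceeded the second by 0.84 to 0.90 in the 6 EDL arrays and by 0.99 to 1.09 in the 6 soleus arrays, with no overlap. Averaged per pool of fibers, the distance was 1.04 ± 0.03 in soleus and 0.87 ± 0.01 in EDL (SD, n = 3 pools each). An exact permutation test gave a two-sided p = 0.1, the smallest that 3 against 3 allows. It did not pair the soleus and EDL pools of the same mice. In TA the distance was 0.90 in cytoplasm 1, 1.30 in cytoplasm 2, 1.17 in cytoplasm 3, and 1.15, 1.13 and 1.10 in nuclei. TA cytoplasm 1 thus read like the EDL arrays and the rest of TA did not. Tnnt3 is known for its many splice forms, and which transcripts each probe measures was not tested.

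The heart subunits differed in how well they were measured. Tnnt2 was well above background on all arrays but 1 of EDL cytoplasm, whereas Tnni3 was so in soleus and in 1 EDL nuclei array. Tnni3, the inhibitory subunit of heart muscle, had levels of 4.24, 3.401 and 4.11 in EDL cytoplasm, 4.55, 4.88 and 5.29 in soleus cytoplasm, 4.29, 4.11 and 4.11 in EDL nuclei, and 4.55, 4.67 and 5.09 in soleus nuclei. Soleus was above EDL in every array. Since no EDL cytoplasm array and 1 of 3 EDL nuclei arrays had the probe well above background, the EDL levels are bounds, and soleus cytoplasm (4.91) exceeded EDL cytoplasm (3.92) by at least 1.62-fold (adjusted p = 0.102). The fit over both fractions passed (adjusted p = 0.034), but the size of that difference is not read. With spots not well above background left out, Tnni3 was not tested, and 5 of the other 8 probes passed. Leaving out a single array ended the call over both fractions in 9 of 18 cases, namely each EDL nuclei and each soleus nuclei array, EDL cytoplasm 2 and soleus cytoplasm 2 and 3, with an adjusted p of up to 0.1. The count of 5 probes fell to 3 without EDL nuclei 1 or 2 or any soleus nuclei array. Tnnt2, the tropomyosin-binding subunit of heart, had 5.57, 4.46 and 5.48 in EDL cytoplasm, 5.27, 7.92 and 7.89 in soleus cytoplasm, 6.94, 6.94 and 6.66 in EDL nuclei, and 6.33, 6.36 and 6.52 in soleus nuclei. Soleus was above EDL in 2 of 3 cytoplasm arrays and below it in nuclei, so the difference of 0.71 ± 0.57 did not pass (SE, 95% interval −0.51 to 1.93, adjusted p = 0.614). The atrial and embryonic light chain Myl4, singled out after its values were seen, was likewise 10.39 in soleus cytoplasm 1 and 11.83 and 12.15 in soleus cytoplasm 2 and 3, and what it shares with Tnnt2 was not tested.

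Neighbouring troponin genes can be set side by side. Tnni1 differed by 5.57 between soleus and EDL and the adjoining Tnnt2 by 0.71. Tnnt1 differed by 3.05 over both fractions (8.28-fold). For the adjoining Tnni3 there is a bound of at least 1.62-fold in cytoplasm alone, where the difference did not pass (adjusted p = 0.102). Tnni2 and Tnnt3, the fast pair, had −0.28 and −0.37. The windows upstream of the 3 slow subunits are shown because these genes rose together in soleus. They are the 250 bases before the start, from RefSeq on GRCm38.p6, with matches to the E-box CANNTG in capitals. The start of Tnni1 shown is the first of 2.
Tnni1, chr1:135799171-135799420, plus strand: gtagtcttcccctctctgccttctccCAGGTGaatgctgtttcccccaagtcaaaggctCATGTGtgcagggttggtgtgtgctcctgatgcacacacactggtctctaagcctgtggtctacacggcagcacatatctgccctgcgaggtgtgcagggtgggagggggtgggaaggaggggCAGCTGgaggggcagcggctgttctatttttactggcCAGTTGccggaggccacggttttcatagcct
Tnnt1, chr7:4515976-4516225, minus strand: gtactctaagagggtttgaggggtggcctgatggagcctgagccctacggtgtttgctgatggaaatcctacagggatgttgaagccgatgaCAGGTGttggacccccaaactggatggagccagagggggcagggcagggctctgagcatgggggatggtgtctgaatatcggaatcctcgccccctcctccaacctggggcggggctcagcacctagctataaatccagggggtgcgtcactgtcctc
Tnnc1, chr14:31208062-31208311, plus strand: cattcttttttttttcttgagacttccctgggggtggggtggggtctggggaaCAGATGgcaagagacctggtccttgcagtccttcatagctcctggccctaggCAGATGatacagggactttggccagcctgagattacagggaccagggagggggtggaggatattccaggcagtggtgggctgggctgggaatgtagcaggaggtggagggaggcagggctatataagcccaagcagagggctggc
The E-box, the site letters of myogenic basic helix-loop-helix factors, had 4, 1 and 2 matches in the windows of Tnni1, Tnnt1 and Tnnc1. It was also present in 66.2% of all 32851 windows of this length. The M-CAT letters CATTCC, searched on both strands, matched once in the window of Tnnc1 and once in a window of Tnnt2, against 12.6% of all windows. TATAAA matched once in Tnnt1 (12.4% of all windows). The MEF2 letters CTANNNNTAG matched in none of the 8 troponin windows and in 3.2% of all windows. Windows were at hand for 6 of the 8 genes, not for Tnni2 and Tnnt3. The fast subunit Tnnc2 held 2 E-boxes as well.

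TA was the other fast muscle. Tnni1 and Tnnt2 were higher in TA than in EDL, Tnnt3 was lower at both probes, and Tnnt1, Tnnc1, Tnni2 and Tnnc2 did not pass the test. Of the 9 probes 5 passed, 2 higher and 3 lower, where the third lower one was Tnni3, near background in both muscles. Without spots not well above background 3 of the other 8 passed. On the array 30.5% of all 41538 probes passed, 13.7% higher and 16.8% lower. The median difference was −0.09 over the 9 probes and −0.02 over all probes. Apart from TA cytoplasm 1, the TA arrays lay on slides that held no EDL array, so muscle and slide cannot be told apart in most of this comparison. The count of 5 fell to 3 without EDL cytoplasm 1 or 3, any EDL nuclei array, TA cytoplasm 2 or 3, or TA nuclei 2 or 3.

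Tnni1 had levels of 6.58, 12.02 and 9.43 in TA cytoplasm and of 11.31, 10.72 and 11.17 in TA nuclei. TA cytoplasm 1 was below every EDL array and the other 5 TA arrays were above every EDL array. The difference from EDL was 2.19 ± 0.61 (SE, 4.55-fold, adjusted p = 0.0138), 1.76 in cytoplasm (adjusted p = 0.2) and 2.61 in nuclei (adjusted p = 0.0494). The call over both fractions held without any single array (1.52 to 2.88). With replicate number as a block in EDL and soleus it was 1.93 (adjusted p = 0.104), and with slide as a random block 0.76 (adjusted p = 0.699). Within slide 1, an alternative added after the data were seen, TA cytoplasm 1 lay −1.002 from the 3 EDL cytoplasm arrays. With a lone TA array on slide 1, this difference and those below on that slide are given without a test. In TA against EDL 12.8% of all probes passed in cytoplasm and 17.7% in nuclei.

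Tnnt2 had levels of 4.54, 8.80 and 7.09 in TA cytoplasm and of 8.58, 8.22 and 8.59 in TA nuclei. The order of the arrays was that of Tnni1 in cytoplasm, with TA cytoplasm 1 among the EDL values and the other 5 above all EDL arrays. TA was higher than EDL by 1.63 ± 0.57 (SE, 3.09-fold, adjusted p = 0.042), a call kept in 4 of the 18 cases that left out an array. The values then ran from 1.13 (without TA cytoplasm 2, adjusted p = 0.113) to 2.20, and each EDL array, each soleus nuclei array and each TA array apart from TA cytoplasm 1 ended the call. With replicate number as a block the adjusted p was 0.0769 and with slide as a random block 0.819. Within slide 1 TA cytoplasm 1 differed from the EDL cytoplasm arrays by −0.63.

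Tnnt1 had levels of 7.70, 12.90 and 11.65 in TA cytoplasm and of 12.39, 12.88 and 12.98 in TA nuclei. TA cytoplasm 1, the lone TA array on slide 1, differed from the EDL cytoplasm arrays of that slide by −3.62. TA cytoplasm 2 was above all EDL cytoplasm arrays and TA cytoplasm 3 among them. TA nuclei 2 and 3 were above all EDL nuclei arrays and TA nuclei 1 among them. The difference over both fractions was −0.09 ± 0.59 (SE, adjusted p = 0.929) and it turned to 0.68 without TA cytoplasm 1 (adjusted p = 0.022). Tnnc1 had 9.70, 10.58 and 9.26 in TA cytoplasm and 9.85, 9.75 and 10.12 in TA nuclei. These levels overlapped with EDL, and the difference was −0.10 ± 0.20 (SE, 95% interval −0.53 to 0.32, adjusted p = 0.734). It turned to 0.04 without TA cytoplasm 3 (adjusted p = 0.884).

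Of the slow troponin genes Tnni1 passed in TA against EDL and Tnnt1 and Tnnc1 did not, and the difference between the genes was not tested. Other slow fiber genes were lower in TA than in EDL: all 5 slow markers fell (median −1.97). Their summed signal was 824 to 1348 in TA arrays, 3055 to 11300 in EDL and 77440 to 113800 in soleus. Lower levels in TA were not confined to slow genes: of the 9 fast markers 5 were lower and 0 higher (median −0.89). Myh7, the slow myosin heavy chain and likewise picked with its values in view, was lower in TA than in EDL by −1.90 ± 0.31 (SE, adjusted p = 0.00061). Tpm3, the slow tropomyosin, was lower by −2.30 ± 0.16 (SE, adjusted p = 6.35e-07). Actc1, the cardiac actin that is also made in developing muscle, was higher by 1.66 ± 0.43 (SE, adjusted p = 0.00842), with 11.74, 12.83 and 10.26 in TA cytoplasm and 12.34, 12.33 and 12.56 in TA nuclei.

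Markers of other cells differed between these arrays too. The summed signal of the 5 satellite cell markers was 518, 6450 and 3372 in TA cytoplasm 1, 2 and 3, 4090 to 4993 in TA nuclei and 290 to 439 in EDL and soleus. In the TA arrays other than cytoplasm 1 most of the sum was Cdh15, which was higher in TA than in EDL by 4.63 (adjusted p = 0.000301). Of the other markers Pax7 had 1.73 (adjusted p = 0.00259), Vcam1 0.88 (adjusted p = 0.00904) and Chrd 0.19 (adjusted p = 0.393), and Myf5 was not well above background in any array.

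The summed signal of the 4 smooth muscle and pericyte markers was 1016, 14854 and 9936 in TA cytoplasm, 14399 to 21467 in TA nuclei and 1625 to 3303 in EDL and soleus. In those same arrays most of it was Acta2, with 2.84 in TA minus EDL (adjusted p = 0.00226). Cspg4 was higher by 1.02 (adjusted p = 0.00103), Myh11 was lower, with −0.64 (adjusted p = 0.00111), and Rgs5 had −0.13 (adjusted p = 0.623). The list thus had no common direction. The 5 heart markers summed to 1866, 10090 and 1984 in TA cytoplasm, 4913 to 8641 in TA nuclei and 1745 to 5179 in EDL and soleus, and none of them passed in TA against EDL. Against EDL, 3 of 5 connective tissue and 4 of 5 Schwann cell markers were lower in TA (medians −1.015 and −1.29). Of the macrophage markers 2 of 4 were higher (median 0.37), and no endothelial or erythroid marker passed. The array of lowest Tnni1, Tnnt1 and Tnnt2 in TA was also that of the lowest satellite and smooth muscle sums. That array also had the lowest connective tissue sum (19285) and the highest macrophage sum (6991) in TA. The part of these cells in the troponin values was not tested.

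**Figure D3:**
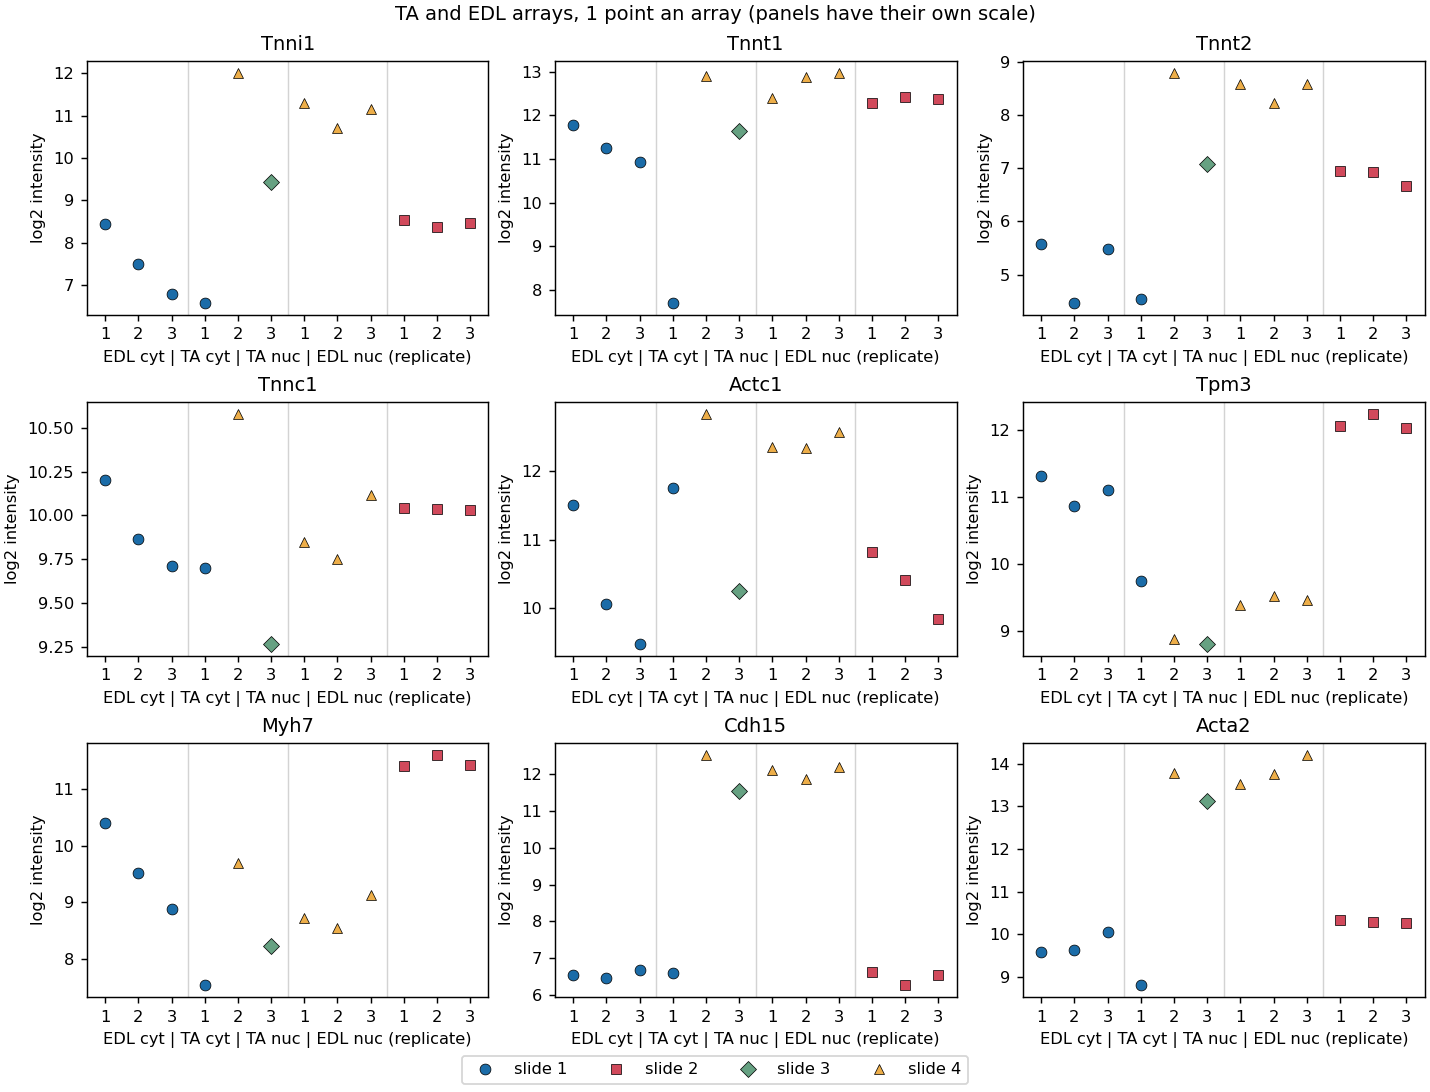
Log2 intensity (vertical axes) of Tnni1, Tnnt1, Tnnt2, Tnnc1 and 5 other genes in each EDL and TA array, coloured by slide. TA cytoplasm 1 has the lowest TA level of Tnni1 (6.58), Tnnt1 (7.70), Tnnt2 (4.54), Cdh15 (6.60) and Acta2 (8.80), and Tpm3 is below EDL in every TA array.

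The fast tropomyosin-binding subunit fell in TA. The first Tnnt3 probe had 14.89, 14.61 and 14.53 in TA cytoplasm and 15.22, 15.22 and 15.06 in TA nuclei. Each TA array was below each EDL array of its fraction, by −0.46 ± 0.10 (SE, adjusted p = 0.0039), a call held without any single array. The second probe had 14.00, 13.31 and 13.36 in TA cytoplasm and 14.06, 14.09 and 13.97 in TA nuclei, and was lower by −0.71 ± 0.13 (SE, adjusted p = 0.000934). Within slide 1 TA cytoplasm 1 differed from the EDL cytoplasm arrays by −0.32 at both probes. With slide as a random block the first probe had an adjusted p of 0.238. Tnni2 had 15.15, 15.26 and 14.97 in TA cytoplasm and 15.66, 15.71 and 15.50 in TA nuclei. Its difference from EDL was −0.08 (95% interval −0.31 to 0.15, adjusted p = 0.63). Tnnc2 had 15.09, 15.16 and 14.78 in TA cytoplasm and 15.57, 15.52 and 15.33 in TA nuclei. Its difference was also −0.08 (95% interval −0.31 to 0.16, adjusted p = 0.648), and TA and EDL overlapped in nuclei for both genes.

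Tnni3 was at 4.16, 3.73 and 3.39 in TA cytoplasm and at 2.89 and 3.34 in TA nuclei 2 and 3, with no value in TA nuclei 1, which the fit left out. No TA array had it well above background. With EDL near background as well, no size of a difference is given, though the fit passed (adjusted p = 0.0379). That pass was lost in 7 of the 16 cases that could be run without an array (adjusted p up to 0.0855), namely without EDL cytoplasm 1 or 3, any EDL nuclei array, or TA cytoplasm 2 or 3, and with replicate number as a block (adjusted p = 0.121). Soleus exceeded TA by at least 1.62-fold in cytoplasm (4.91 against 3.76, adjusted p = 0.0081) and by at least 1.38-fold in nuclei (4.77 against 3.11, adjusted p = 0.00248).

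Soleus against TA gave 4 passing probes of 9, all higher in soleus, where 38% of all 41366 probes passed, 19% in either direction. Tnnc1 was higher by 4.07 ± 0.20 (SE, adjusted p = 2.13e-09), Tnni1 by 3.39 ± 0.61 (adjusted p = 0.000644) and Tnnt1 by 3.14 ± 0.59 (adjusted p = 0.000814). These 3 calls held without any single array. Within slide 1 the soleus cytoplasm arrays exceeded TA cytoplasm 1 by 3.79 for Tnnc1, 6.47 for Tnni1 and 7.09 for Tnnt1. These differences rest on a lone TA array, which stood apart from the other TA arrays. By fraction, 29.2% of all probes passed in cytoplasm and 19.9% in nuclei. The median difference over the 9 probes was 0.18, against −0.05 over all probes.

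Read across the 3 muscles, the order of mean levels was soleus, TA, EDL for Tnni1 in either fraction. TA and EDL cytoplasm did not differ beyond their spread for this gene (1.76 ± 0.87, SE). For Tnnc1 soleus stood apart in both fractions, and EDL and TA did not differ beyond their spread. For Tnnt1 the order was soleus, EDL, TA in cytoplasm and soleus, TA, EDL in nuclei, with EDL and TA again not separated. For Tnni2 and Tnnc2 no muscle passed against another. For Tnnt3 EDL was highest, and soleus and TA were not separated (0.09 ± 0.10 at the first probe and 0.18 ± 0.13 at the second, SE), though the second passed without TA cytoplasm 1 (0.29, adjusted p = 0.0189). For Tnni3 soleus was highest. For Tnnt2 the group mean was highest in TA among nuclei and in soleus among cytoplasm. Soleus and TA cytoplasm did not differ beyond their spread (0.21 ± 0.81, SE), and the highest cytoplasm array was TA cytoplasm 2 (8.80). Over both fractions soleus and TA did not pass against each other (−0.92 ± 0.57, SE, adjusted p = 0.221), except without TA cytoplasm 1 (−1.49, adjusted p = 0.0141). Against that array alone, on slide 1, soleus cytoplasm was higher by 2.48.

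The second question was how the subunits divide between the nuclei and the cytoplasm. Over the 3 muscles 5 of 9 probes passed, all higher in nuclei: Tnni1 by 2.35-fold and the 4 probes of the fast subunits Tnni2, Tnnt3 and Tnnc2 by 1.21-fold to 1.28-fold. The fast subunits' direction rested on the scaling between arrays. With each array set to its 75th percentile, Tnni2 and Tnnc2 passed as lower in nuclei and neither Tnnt3 probe passed. Of all 40541 probes tested 69.9% passed, 31.3% higher in nuclei and 38.6% lower, so passing was common on the array. The count rose to 8 without TA cytoplasm 2. The median difference was 0.36 over the 9 probes and −0.08 over all probes.

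How the gap between fractions compared with the spread between cytoplasm pools differed by muscle. In TA it was below the cytoplasm SD of 2.72 for Tnni1 (1.72) and Tnnt1 (2.00). Nuclei lay above cytoplasm without overlap for Tnni1 in soleus (1.09, cytoplasm SD 0.51) and Tnnt1 in EDL (1.04, SD 0.42). The fractions overlapped for Tnni1 in EDL (0.88, SD 0.83) and, at the Tnnt1 probe, in soleus (0.20, SD 0.21). At the further troponin T1 probe soleus nuclei (13.51 to 13.65) lay above soleus cytoplasm (11.94 to 12.87) without overlap. Tnni1, whose probe needs spliced RNA, was higher in nuclei by 1.23 ± 0.50 (SE, adjusted p = 0.0384). The call was kept without EDL cytoplasm 1, soleus cytoplasm 2, TA cytoplasm 1, TA cytoplasm 2 or TA nuclei 2, and lost without any of the other 13 arrays (0.77 to 1.68 in all 18 cases, adjusted p up to 0.0748). By muscle the difference was 0.88 in EDL (adjusted p = 0.423), 1.09 in soleus (adjusted p = 0.332) and 1.72 in TA (adjusted p = 0.106), and the last was 3.06 without TA cytoplasm 2 (adjusted p = 0.00132). Tnnt1 was higher by 1.08 ± 0.48 over the muscles (SE, adjusted p = 0.0551), a difference that passed without TA cytoplasm 1 (0.57, adjusted p = 0.00813), TA cytoplasm 2 (1.44, 0.00436) or TA cytoplasm 3 (1.23, 0.0385). The further troponin T1 probe passed, with 0.96 ± 0.28 (SE, adjusted p = 0.00625), and was not run under the alternatives. Tnnt2 had 0.90 (adjusted p = 0.0963), and passed without TA cytoplasm 2 (1.24, adjusted p = 0.0122). In TA alone Tnnt1 had 2.00 (adjusted p = 0.0537) and Tnnt2 1.65 (adjusted p = 0.0984), which were 3.08 (adjusted p = 0.00338) and 2.65 (adjusted p = 0.00902) without TA cytoplasm 2. Without TA cytoplasm 3 Tnnt1 had 2.45 (adjusted p = 0.036). With slide as a random block Tnni1, Tnnt1 and Tnnt2 turned to −0.20, −0.36 and −0.24.

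Tnnc1 was the only probe that passed in soleus, where 40.6% of all 43586 probes passed, 18.8% higher and 21.8% lower. Its difference was 0.91 ± 0.28 (SE, 1.88-fold, adjusted p = 0.0175), with all nuclei arrays above all cytoplasm arrays. The call was lost without soleus cytoplasm 3 (0.70, adjusted p = 0.0872) or soleus nuclei 3 (0.89, adjusted p = 0.0505), and it was lost with 75th percentile scaling (0.28, adjusted p = 0.419). Tnnc1 had 0.11 in EDL (adjusted p = 0.769) and 0.06 in TA (adjusted p = 0.873), and 0.36 over the muscles (adjusted p = 0.0586), which passed without EDL cytoplasm 1 (0.0438), soleus cytoplasm 2 (0.0266) or TA cytoplasm 2 (0.00406). Whether the 3 muscles differ in these gaps was tested by an interaction, which no troponin probe passed (smallest adjusted p 0.37, for Tnnc1, unadjusted p = 0.0849), where 1.67% of all probes passed. With soleus nuclei and cytoplasm on different slides, fraction and slide cannot be told apart here.

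For the fast subunits the difference over the muscles was 0.28 ± 0.09 for Tnni2 (SE, adjusted p = 0.0104), 0.35 ± 0.09 for the first Tnnt3 probe (0.00174), 0.36 ± 0.10 for the second (0.00599) and 0.28 ± 0.09 for Tnnc2 (0.0108). With 75th percentile scaling these became −0.24 (adjusted p = 0.0264), −0.15 (0.184), −0.03 (0.841) and −0.23 (0.0359). With no scaling they were 0.35, 0.44, 0.57 and 0.37. The scaling also moved the median of all probes, which was −0.08 after quantile normalization, −0.18 with 75th percentile scaling and 0.42 with none. Relative to it the 4 probes stood above the median of all probes after quantile normalization, and Tnni2 and Tnnc2 stood below it under both other settings. In soleus all 4 lay above the median after quantile normalization (0.16 to 0.24 against −0.01) and below it with no scaling (0.52 to 0.65 against 0.96).

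**Figure D4:**
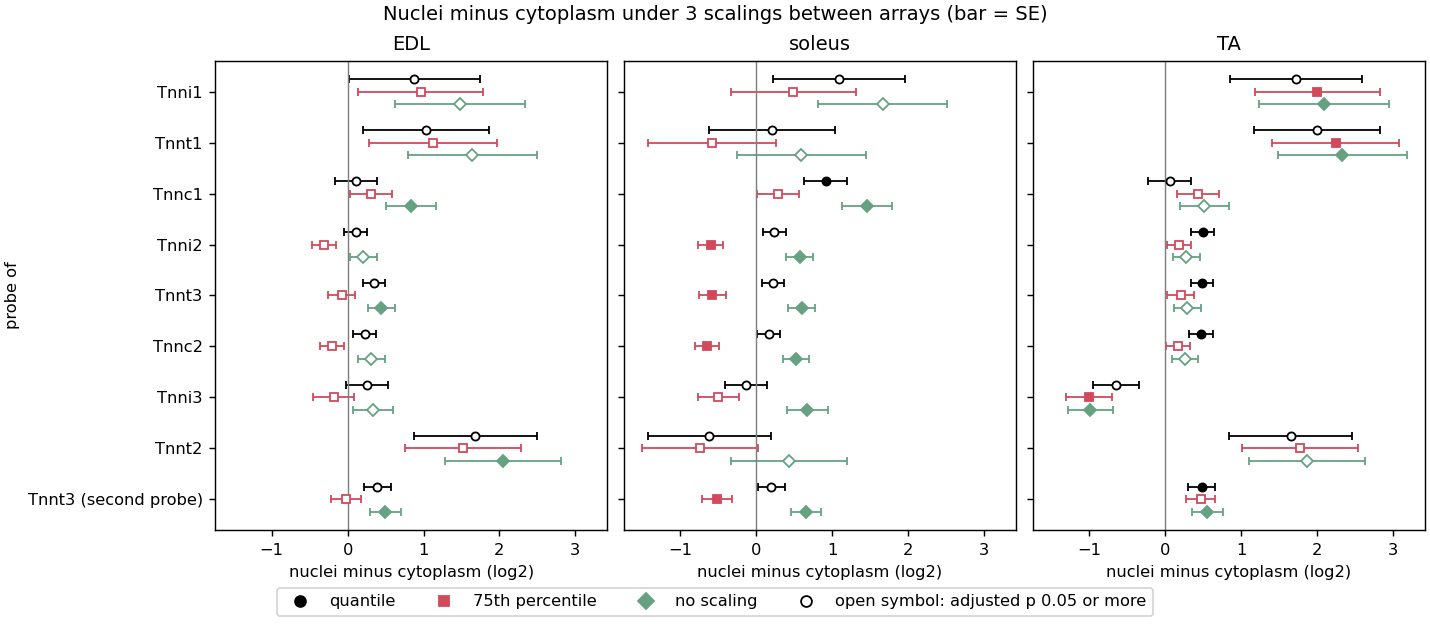
Nuclei minus cytoplasm in log2 intensity (horizontal axis) for the 9 troponin probes in EDL, soleus and TA, under quantile normalization, 75th percentile scaling and no scaling. Bars are the SE. The fast subunits Tnni2, Tnnt3 and Tnnc2 change side in EDL and soleus with 75th percentile scaling, as does Tnnt1 in soleus.

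By muscle, the fast subunits passed in TA alone. In TA 4 of 9 probes passed after quantile normalization, all higher in nuclei, against 52.9% of all 43630 probes, 19.3% higher and 33.6% lower. Tnni2 had 0.50 ± 0.15 (SE, adjusted p = 0.0126), the first Tnnt3 probe 0.49 ± 0.15 (0.0113), the second 0.48 ± 0.18 (0.0325) and Tnnc2 0.47 ± 0.16 (0.0196). Tnni2 lost its call without TA nuclei 2 (0.45, adjusted p = 0.0506), and Tnnc2 without TA cytoplasm 3 (0.35, 0.0635), TA nuclei 1 (0.42, 0.0718) or TA nuclei 2 (0.44, 0.0602). The count of 4 fell to 2 without TA nuclei 1 and to 1 without TA nuclei 2. With slide as a fixed block the comparison rests on TA cytoplasm 2 alone, so its count is not read. The second Tnnt3 probe lost its call with replicate number as a block in EDL and soleus (adjusted p = 0.0505) and without any TA array but cytoplasm 1 (0.36 to 0.52, adjusted p up to 0.126). In EDL no troponin probe passed, against 46.8% of all 43656 probes, 20.2% higher and 26.7% lower. The unadjusted p in EDL was 0.0312 for the first Tnnt3 probe and 0.0443 for the second, and the first passed without soleus cytoplasm 2 (adjusted p = 0.0485), TA cytoplasm 1 (0.0253) or TA cytoplasm 3 (0.045). Without TA cytoplasm 1 the EDL count was 4, with Tnnt1 (1.04, adjusted p = 0.00756) and Tnnt2 (1.68, adjusted p = 0.0276) among them. Tnni3 did not pass in any muscle, and outside soleus its levels were at or near background.

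The fractions carried their labels in part. The 3 nuclear RNAs Malat1, Neat1 and Xist were all higher in nuclei over the muscles (median 2.78). Markers of other cells also divided between fractions: all 6 endothelial, all 5 connective tissue and 4 of 5 Schwann cell markers were higher in nuclei (medians 0.98, 0.90 and 0.97), 2 of 4 smooth muscle markers were higher (1.08), and 4 of 4 macrophage, 3 of 5 erythroid and 4 of 5 heart markers were lower (−0.68, −0.51 and −0.71). Of the 3 satellite cell markers tested 1 was higher and 1 lower. The part of carried cells in the troponin differences between fractions was not tested. Between soleus and EDL none of the endothelial, connective tissue, macrophage, erythroid, satellite cell or smooth muscle markers passed, 1 of 5 heart markers was higher and 3 of 5 Schwann cell markers were lower.

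The partners of troponin on the thin filament were read from a list of 17 genes, 15 of which had a probe (Klhl40 and Klhl41 had none). Between soleus and EDL 4 were higher and 1 was lower, with a median of 0.12. Tpm3, the slow tropomyosin to which troponin T binds, was higher in soleus by 3.099 ± 0.16 (SE, adjusted p = 1.91e-08). Its levels were 10.86 to 11.31 in EDL cytoplasm, 14.28 to 14.73 in soleus cytoplasm, 12.03 to 12.24 in EDL nuclei and 14.94 to 15.00 in soleus nuclei. The other 2 Tpm3 probes had 1.07 (adjusted p = 0.153) and 3.54 (adjusted p = 2.56e-08). Lmod2 and Lmod3, which nucleate and lengthen actin filaments, were higher by 2.41 ± 0.35 (adjusted p = 0.000731) and 1.05 ± 0.15 (0.000534). Cfl2, the muscle cofilin, was higher by 1.10 ± 0.10 (5.27e-06), and Tmod1, which caps the pointed end, was lower by −0.87 ± 0.17 (0.00876). The listed actins and the other tropomyosins did not pass. Acta1 had 0.16 (adjusted p = 0.57), Actc1 −1.36 (0.101), Tpm1 −0.35 (0.103) and Tpm2 0.12 (0.688). Every Tpm1 probe was lower in soleus, with −0.13 to −0.82, and none passed. In TA against EDL 1 partner was higher, which was Actc1, and 10 were lower (median −0.44). In soleus against TA 9 were higher and 1 lower (median 0.65). Over the muscles 10 of 15 partners were higher in nuclei and 1 lower (median 0.28), with 5 higher and 1 lower in TA alone, 3 higher and 1 lower for soleus, and 2 higher and 1 lower for EDL.

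Among the 24936 probes that had a value on all arrays and carried a gene name other than a troponin's or an unnamed region's, those whose 6 group means, centred on their own mean, lay closest to Tnni1 were found by root mean square distance. The closest was the probe of the troponin T1 transcript (0.64 log2 units). It was followed by Ankrd2, a stress-responsive ankyrin repeat protein of the sarcomere, at 0.99, Myl6b, a slow myosin light chain, at 1.09, the phosphatase Inpp5j at 1.16 and Csrp3, the muscle LIM protein, at 1.18. The distances are a description over 6 group means. Since the genes were picked by these same means, their differences are given without a test. Ankrd2 had 3.65 ± 0.26 in soleus minus EDL (SE) and 0.00 in TA minus EDL. Myl6b had 3.77 ± 0.92 in TA minus EDL (SE) and 0.77 in soleus minus TA.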

How the data were processed

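RNA from the nuclei and the cytoplasm of fiber pools was labelled with Cy3 and hybridized to Agilent 1-colour arrays in 18 samples. Per the file headers, the deposited scanner files hold a processed intensity per spot. Feature Extraction subtracted the background and removed spatial trends of each array, but put no common scale on the arrays, and the submitters' processing notes name version 10.7.3.1. Probe positions in the files are on mm9. The deposited value table covers 3687 of 62976 features with values, none of them a troponin probe.

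Log2 values of the processed intensity were used. A spot counted as missing if its signal was not flagged positive and significant or if it was an outlier (0.263% to 0.568% of spots). Without the 3671 control spots, arrays were quantile-normalized together and spots of a probe name were averaged. Group means of the 6 groups were fitted with limma 3.58.1 (R 4.3.3), with eBayes moderation (prior degrees of freedom 3.32). P-values are 2-sided and adjusted by Benjamini and Hochberg over all probes tested in a comparison, at a threshold of 0.05. A probe was tested with a value on at least 2 of 3 arrays in each group involved. The study's Significance Analysis of Microarrays regroups samples and was not run. The scripts were tested on simulated data.

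The labels place EDL and soleus pools of the same number in the same mice. Over 35528 probes the deviations of same-numbered samples from their group means correlated between −0.111 and 0.101 (18 pairs), those of other pairs between −0.127 and 0.192. The blocked value is given where it changes a call.

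The members, the lists of thin filament partners and of cell markers, and the tests were chosen with earlier results of these data known. Named were all troponin probes, the partners Acta1, Actc1, Tpm1, Tpm2 and Tpm3, any other partner past 0.05 in soleus against EDL, and the 5 gene symbols whose group means lay closest to Tnni1 and to Tnni2. A gene of a list was read by its brightest probe. Bounds are the mean of the bright group over the lowest signal among probes well above background on the dim group's arrays, or over the probe's own signal where higher. The alternatives tried were other scalings and background corrections, other spot filters, array weights, blocks for slide and replicate number, averaged samples and leaving out each array. Those within slide 1 and on EDL and soleus arrays alone were added after the data were seen.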

Additional observations from a re-analysis of the deposited data

How the results depend on the processing

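The higher levels of Tnni1, Tnnt1 and Tnnc1 in soleus than in EDL kept their direction and their side of the threshold under every alternative run, apart from Tnni1 and Tnnt1 when nuclei arrays were averaged. The differences between fractions did not. The cause of each change below was not tested unless the setting itself removes samples. Over all single genes, 1716 recomputed values kept direction and call, 93 lost the call, 81 gained it and 48 turned, and of the recomputed counts 193 stayed within 1.5 times and 52 did not. The deposited value table could not serve as an alternative, since it holds no troponin probe.

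With 75th percentile scaling nuclei minus cytoplasm turned to −0.243, −0.151 and −0.23 over the muscles for Tnni2, Tnnt3 and Tnnc2, to −0.313, −0.183, −0.078 and −0.206 in EDL for Tnni2, Tnni3, Tnnt3 and Tnnc2, and to −0.603, −0.583, −0.58 and −0.653 in soleus for Tnni2, Tnnt1, Tnnt3 and Tnnc2, where 4 probes passed in place of 1. With no scaling 8, 4 and 6 probes passed over the muscles, in EDL and in soleus, and 1 in the interaction. Tnni3 turned to 0.008 over the muscles and 0.673 in soleus, Tnnt2 to 0.433 in soleus, and Tnnc2 to 0.033 in soleus minus TA. With normexp correction 2 probes passed in EDL and 2 in soleus, Tnnc1 turned to −0.038 between fractions in TA and Tnnt3 to −0.041 in soleus minus TA. With spots well above background, 3 probes passed in TA against EDL and Tnni3 turned to 0.231 between fractions in soleus. With no filter on dim spots Tnni3 was at 0 over the muscles and 2 probes passed in EDL.

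Array weights gave 4 passing probes between fractions in EDL, 1 in the interaction and 8 in soleus against TA. They turned Tnni1, Tnnt2 and Tnnc1 to −0.494, −0.009 and −0.534 between fractions in TA, and Tnnt1 and Tnnc1 to 0.814 and 0.143 in TA minus EDL. With replicate number as a block in EDL and soleus 2 probes passed in TA against EDL, with losses for Tnni1, Tnni3 and Tnnt2, and the second Tnnt3 probe lost its call in soleus against EDL and between fractions in TA. The block changed no other call. With slide as a fixed block the gap between fractions in TA rested on TA cytoplasm 2 alone. There Tnni1, Tnnt1, Tnnt2 and Tnnc1 turned to −0.951, −0.152, −0.338 and −0.674. With slide as a random block (correlation 0.524) 1 probe passed over the muscles, 0 in soleus and 0 in TA against EDL. Nuclei minus cytoplasm then turned to −0.201, −0.361 and −0.235 over the muscles for Tnni1, Tnnt1 and Tnnt2, to −0.568 and −0.561 in EDL for Tnni1 and Tnnt1, to −0.357, 0.071 and −1.395 in soleus for Tnni1, Tnni3 and Tnnt1, and to −0.325 in TA for Tnnc1. Soleus minus TA turned to 0.192 for Tnnt2.

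Averaging the nuclei arrays of a muscle left 0 passing probes over the muscles, in soleus and in TA between fractions, 1 in soleus against EDL, 0 in TA against EDL and 1 in soleus against TA. Averaging TA cytoplasm 1 and 2, which share a mouse, gave 8, 5, 2 and 7 over the muscles, in EDL, in soleus and in TA, and turned Tnnt1 to 0.025 in TA minus EDL. On EDL and soleus arrays alone 4 probes passed in EDL and 2 in soleus.

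Without 1 array the count ran from 4 to 8 over the muscles, 0 to 4 in EDL, 0 to 1 in soleus, 1 to 6 in TA, 3 to 6 in soleus against EDL, 3 to 6 in TA against EDL and 3 to 6 in soleus against TA, and it stayed 0 in the interaction. Values that turned ran from −0.003 to 0.415 for Tnni3 in EDL, −0.317 to 0.056 for Tnni3 in soleus and −0.233 to 0.426 for Tnnc1 in TA between fractions, and from −0.625 to 0.676 for Tnnt1 and −0.288 to 0.042 for Tnnc1 in TA minus EDL. Signal over background limits Tnni3, which was not well above background in EDL cytoplasm or in TA.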

Other observations

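The probes whose group means lay closest to the fast inhibitory subunit Tnni2 were Gm8055 (0.03 log2 units), Gm10290 (0.06), NAP062956-1 (0.07), Gm6981 (0.07) and NAP111347-1 (0.07). Their group means ran from 14.14 to 15.34, and those of Tnni2 from 15.06 to 15.62. No function is given here for these predicted genes and array identifiers. They share with Tnni2 a small range over the 6 groups.

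The third muscle gave the widest spread of troponin probes among replicates. The SD over 3 arrays of TA cytoplasm was 2.72 for Tnni1 and for Tnnt1 and 2.14 for Tnnt2, and that of soleus cytoplasm was 1.52 for Tnnt2. Among nuclei groups the highest SD of a troponin probe was 0.32. The median SD over all probes was 0.25 to 0.40 in cytoplasm groups and 0.11 to 0.15 in nuclei groups.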
